A study of Mus musculus with 6 samples.

Results

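Aminoacyl-tRNA synthetases were followed in sorted erythroid precursors of Rb-null and control mice, with the cytosolic enzymes set against those of mitochondria. The members were a list of 35 synthetase genes, matched by symbol or synonym to the array's probe set annotation, and for each gene the brightest probe set was used. Of the 35, 34 carried a probe set among the 18192 genes named on the array, 19 of 20 cytosolic enzymes and all 15 enzymes whose symbol ends in 2, which act in mitochondria. Dars had no probe set named for it alone and is not analysed here.

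Bone marrow cells sorted as CD71+/Ter-119+, a combination that marks nucleated erythroid precursors, were read on 6 single-colour arrays, 3 per group. Rb-null animals were EpoR-GFPcre/+; Rb fl/fl and controls EpoR-GFPcre/+; Rb fl/+, so both groups carried Cre at 1 allele of the erythropoietin receptor locus and at least 1 floxed Rb allele. The labels give neither the animals' age nor whether animals were pooled or arrays came from separate animals, so a p-value covers only how these samples vary, which may be technical. In a bulk sample, fewer cells of a type and less RNA per cell cannot be told apart.

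A synthetase joins 1 amino acid to its tRNA, the step that supplies every ribosome. Most cytosolic enzymes and their mitochondrial partners come from separate nuclear genes, whereas Gars and Kars each encode both forms. In many cells the transcription factor ATF4, made when kinases of the eIF2 alpha subunit slow translation, binds elements of the type TGATGNAA in genes of amino acid supply, several synthetases among them. In red cell precursors 1 of these kinases, Eif2ak1, senses heme.

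Promoter windows show which members hold such letters. They ran from 250 bases before the start site to 50 from it on and were taken from RefSeq (GRCm38.p6). Windows were at hand for 13 cytosolic genes, Dars among them, and 13 mitochondrial genes. None was at hand for Cars, Hars, Lars, Nars, Rars, Vars, Wars, Hars2 and Pars2, so their promoters were not searched. TGATGNAA was searched on both strands. It was found in 5 of the 13 cytosolic genes (Aars, Gars, Iars, Tars and Yars) and in 0 of the 13 mitochondrial genes. It was found in 3.97% of all 32851 windows, and in 8 of 28 genes (28.6%) of the ATF4 related list below. Here and for the next motif, a gene counted if any of its windows matched, so shares of genes and of windows are unlike measures. CACGTG, the E-box bound by Myc and related factors and the same on both strands, was found in 4 cytosolic genes (Aars, Farsb, Iars and Tars), in 1 mitochondrial gene (Ears2) and in 7.15% of all windows. The motifs did not overlap each other in any member. The 160 bases around the start site are printed below, 130 before it and 30 from it on, for the 5 genes with TGATGNAA, in capitals, and for Sars and Qars, whose windows lack it and which lay on opposite sides of 0 in the comparison of the groups. A match is a description of letters, not a site of binding.

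Aars: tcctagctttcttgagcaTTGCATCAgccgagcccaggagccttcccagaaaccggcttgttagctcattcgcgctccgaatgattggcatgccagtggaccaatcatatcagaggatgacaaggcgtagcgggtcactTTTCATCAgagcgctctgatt
Gars: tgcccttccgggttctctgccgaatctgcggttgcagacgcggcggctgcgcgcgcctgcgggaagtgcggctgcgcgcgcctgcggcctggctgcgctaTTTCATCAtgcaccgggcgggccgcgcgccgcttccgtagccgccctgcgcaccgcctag
Iars: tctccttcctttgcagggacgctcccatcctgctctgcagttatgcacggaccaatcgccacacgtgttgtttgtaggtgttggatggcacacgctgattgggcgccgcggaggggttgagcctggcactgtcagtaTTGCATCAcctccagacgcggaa
Tars: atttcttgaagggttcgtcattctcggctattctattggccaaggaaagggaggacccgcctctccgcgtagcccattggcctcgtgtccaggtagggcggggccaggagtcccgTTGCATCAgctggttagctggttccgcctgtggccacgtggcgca
Yars: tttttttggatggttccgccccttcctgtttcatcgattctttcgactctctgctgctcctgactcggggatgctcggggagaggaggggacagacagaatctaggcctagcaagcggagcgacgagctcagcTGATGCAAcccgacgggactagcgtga
Sars: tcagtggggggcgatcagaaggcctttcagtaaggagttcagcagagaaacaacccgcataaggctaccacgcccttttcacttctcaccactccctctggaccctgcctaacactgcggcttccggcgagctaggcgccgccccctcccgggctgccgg
Qars: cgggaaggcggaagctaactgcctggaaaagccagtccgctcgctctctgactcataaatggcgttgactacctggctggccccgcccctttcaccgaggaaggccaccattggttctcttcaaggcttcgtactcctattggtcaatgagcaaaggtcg

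These stretches lie at chr8:111033712-111033871 on the plus strand, chr6:55037871-55038030 on the plus strand, chr13:49682000-49682159 on the plus strand, chr15:11399629-11399788 on the minus strand, chr4:129189773-129189932 on the plus strand, chr3:108445230-108445389 on the minus strand and chr9:108507875-108508034 on the plus strand. The Aars window held 2 matches, beginning 112 bases before and 9 bases after the start site. In Gars and Tars the match began 30 and 15 bases before the start site, and in Iars and Yars 7 and 3 bases after it. As given below, Aars and Gars read higher in Rb-null cells in each pair. After normalization Iars was lower in each pair (-0.04, -0.35 and -0.32), and Tars and Yars changed sign between pairs. Iars, Tars and Yars differed by less than their standard errors.

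Array medians of the deposited intensity ran from 23.3 to 31.2, and precision is limited by having 6 arrays. Rb1, the targeted gene, read 2760, 2152 and 1379 in controls and 4045, 3670 and 2897 in Rb-null cells, so its signal was not lower in the arrays labelled Rb-null. Whether this probe set falls inside the deleted part of the gene is not known here, so the signal is no test of the genotype labels, from which all directions are taken. Both arrays numbered 3 stood apart, with 18S control probe sets at 1231 and 542 against 32.6 to 66.2 on the other arrays. The ratio of 3' to 5' actin signal, a sign of RNA quality, was 1.67, 1.15 and 1.18 in controls and 1.43, 1.10 and 1.01 in Rb-null cells, lower in Rb-null in each pair and highest on the arrays numbered 1, and its part in the results was not tested. Among markers of the sorted lineage, Tfrc, which encodes CD71, read 6086 to 8506 and the band 3 gene Slc4a1 read 9114 to 10220, with 7 erythroid markers past the filter, of 8 with a probe set and 14 listed. The Hba-a1 probe set read at most 27.0, below the filter on average. Markers of other cells were present. The median log2 difference of each of their lists was negative, from -0.51 for granulocytes to -0.28 for T and NK cells. That of the erythroid markers was 0.05, and none of these medians was tested. All 12 granulocyte markers passed the filter, with S100a8 at 9111 to 12488 and a summed level of 35897 to 53023 in controls and 26606 to 53255 in Rb-null cells. Their median log2 differences were -0.81, -0.01 and -0.64 in pairs 1, 2 and 3, a pair being the 2 arrays of the same replicate number. The 10 macrophage markers summed to 1581 to 2666 in controls and 1270 to 1635 in Rb-null cells, and the 10 B and plasma cell markers with a probe set to 960 to 1312 in controls and at most 1092 in Rb-null cells. Of the 8 T and NK cell markers 4 passed (summed level 469 to 559 and 385 to 467), of 6 megakaryocyte markers 4 (346 to 561 and 322 to 376), and of 7 listed markers of mast cells, basophils and eosinophils 5 (171 to 1395 and 149 to 1183). The part of these cells in the synthetase results was not tested. Medians in pairs 1, 2 and 3 were -0.39, 0.08 and -1.01 for macrophage markers, -0.52, -0.26 and -0.62 for B and plasma cells, -0.07, -0.07 and -0.46 for T and NK cells, -0.06, -0.18 and -0.57 for megakaryocytes, and -0.06, -0.11 and -0.09 for mast cells, basophils and eosinophils. The granulocyte, macrophage and B and plasma cell medians were nearer to 0 in pair 2 than in pairs 1 and 3. Of the medians of these other cells, only that of macrophages was above 0 in pair 2. There the log2 difference was 0.50 for Nars, 0.37 for Aars, 0.32 for Gars and 0.29 for Sars. It was -0.90 for Hars, -0.29 for Qars and -0.41 for Lars2. Except for Lars2, each was the smallest in size of that gene's pair differences. The cytosolic median exceeded the mitochondrial one by 0.06 in pair 2, against 0.20 and 0.30 in pairs 1 and 3.

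The cytosolic synthetases as a group lay on both sides of 0, as all genes did: 9 of 19, or 47.4%, had a positive log2 difference, against 45.4% of all genes. On the probe set used, Nars, Aars, Sars and Gars, which charge asparagine, alanine, serine and glycine, read higher in Rb-null cells in each pair. Hars and Qars, the histidine and glutamine enzymes, and Farsb, a phenylalanine enzyme subunit, read lower in each pair. With smaller fitted differences, Mars was also higher in each pair after normalization, and Farsa, Iars, Kars and Wars were also lower. In total 5 of 19 were higher in each pair (26.3%, against 18.4% of all genes) and 7 lower (36.8%, against 24.1%). Log2 differences ran from 0.74 for Nars to -0.96 for Hars, with a median of -0.05 over 19 genes against -0.04 over all 13232 genes tested. The cytosolic median was -0.19 without control replicate 1 and 0.07 without control replicate 2. The mitochondrial enzymes lay lower, with a median of -0.24 over the 12 that passed the filter on dim probe sets (log2 5.12, an intensity of 18.9), and the lowest, Iars2, was at -0.46. By limma's moderated test, adjusted with the Benjamini-Hochberg method over all genes, 0 of the 31 members passed at adjusted p under 0.05, as did 0 of all genes (0%), so none of these differences is a call. Without both arrays numbered 3 the medians were -0.03 and -0.17, and the differences 0.70 for Nars, 0.60 for Aars, 0.57 for Sars, 0.49 for Gars, -0.89 for Hars and -0.53 for Qars. At unadjusted p under 0.05 stood 2 members, Hars and Nars, or 6.45%, against 4.06% of all genes.

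**Figure D1:**
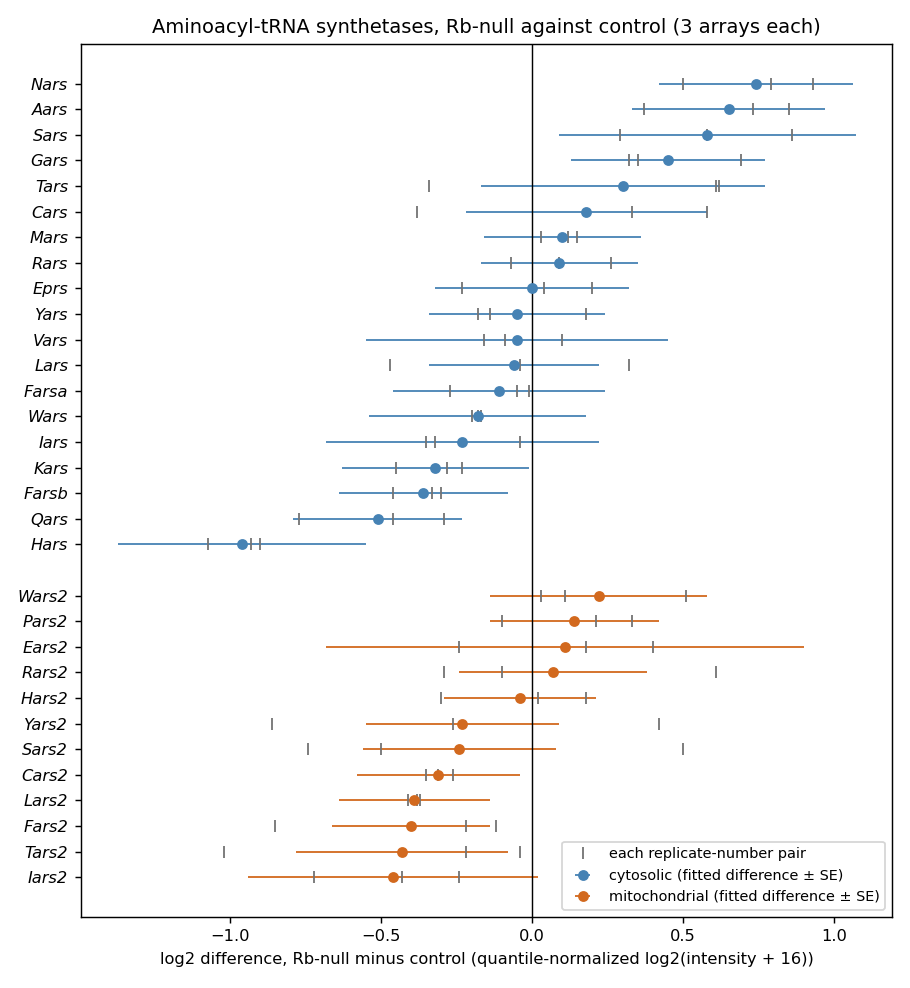
Log2 difference between Rb-null and control cells for the 31 synthetases past the filter, cytosolic enzymes above and mitochondrial enzymes below. Points are fitted differences of 3 against 3 arrays with standard errors, and grey ticks are the differences within replicate numbers 1, 2 and 3. Cytosolic enzymes spread from -0.96 for Hars to 0.74 for Nars, and 8 of 12 mitochondrial enzymes lie below 0.

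With the replicate number as a block, since arrays of the same number varied together, 4 members were higher at limma's unadjusted p under 0.05, Aars, Gars, Nars and Sars, all cytosolic, and 5 were lower, Hars, Qars, Farsb, Iars2 and Lars2. These are 12.9% and 16.1% of the 31 members, beside 7.77% and 9.14% of all genes. Hars alone of the members had a limma adjusted p under 0.1 with the block (0.0896), as did 1.09% of all genes. When the block was joined with a variance trend and robust moderation, limma called 2 of the 31 members, 6.45%, beside 3.57% of all genes. These were Hars (adjusted p = 0.0162) and Nars (adjusted p = 0.0349).

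Nars, the asparagine enzyme, read 461, 737 and 730 in controls 1, 2 and 3, and 950, 1059 and 1342 in Rb-null cells 1, 2 and 3. Each Rb-null array was above all 3 controls. Nars averaged 643 ± 157 (SD, n = 3) in controls against 1117 ± 202 (SD, n = 3). The fitted log2 fold change was 0.74 (SE 0.32), or 1.67-fold, with pair differences of 0.93, 0.50 and 0.79. Its limma unadjusted p was 0.0495 and its adjusted p 1.00, and the other Nars probe set had 0.23 (SE 0.29). Values of further probe sets, here and below, come from a fit over all probe sets past the filter. The other Nars probe set read 415, 689 and 548 in controls and 788, 609 and 581 in Rb-null cells. It was thus lower in pair 2, with overlapping groups, so the Nars pattern over the pairs rests on the brightest probe set. Aars, the alanine enzyme, read 460, 921 and 711 in controls and 897, 1217 and 1264 in Rb-null cells. On the deposited scale Rb-null array 1 lay just below control array 2, while after quantile normalization the groups did not overlap. Its log2 fold change was 0.65 (SE 0.32), with pair differences of 0.85, 0.37 and 0.73, and 0.71 (SE 0.33) on its other probe set.

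Sars, the serine enzyme, which also charges the tRNA of selenocysteine, read 249, 801 and 628 in controls and 482, 1002 and 986 in Rb-null cells. The groups overlapped because the arrays numbered 1 were low in both. Its log2 fold change was 0.58 (SE 0.49), with pair differences of 0.86, 0.29 and 0.58, and without control replicate 1 it was 0.07. That fit, like all those with 1 array left out, had no block, so number 1 stood in the Rb-null group only. The value of 0.07 lay below all 3 pair differences. Gars, the glycine enzyme of cytosol and mitochondria, read 443, 922 and 447 in controls and 779, 1171 and 579 in Rb-null cells, with a fitted log2 difference of 0.45 (SE 0.32) with pair differences of 0.69, 0.32 and 0.35. In Gars the array numbered 2 was the brightest of each group, and the groups overlapped. Over the alternatives run, Nars ranged from 0.48 to 0.94, Aars from 0.39 to 0.82 and Gars from 0.27 to 0.71.

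Hars, the histidine enzyme, was the member with the largest difference. It read 1125, 1250 and 509 in controls and 642, 690 and 233 in Rb-null cells. Within each number the Rb-null array was the dimmer, but control array 3 lay below Rb-null arrays 1 and 2. Hars averaged 961 ± 397 (SD, n = 3) in controls against 522 ± 251 (SD, n = 3), 1.95-fold lower on the fitted scale (log2 fold change -0.96, SE 0.41, limma unadjusted p = 0.0447, adjusted p = 1.00). Pair differences were -0.93, -0.90 and -1.07, the narrowest spread among the 5 members with a difference over 0.5 in size. The SE was 0.14 with the block. Its other probe set had -0.71 (SE 0.26). Without Rb-null replicate 3 the difference was -0.59, and over all alternatives it lay between -1.28 and -0.59.

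Qars, the glutamine enzyme, read 490, 343 and 331 in controls and 300, 279 and 236 in Rb-null cells. All Rb-null values were below all controls, and the log2 fold change was -0.51 (SE 0.28), with -0.52 (SE 0.33) and -0.67 (SE 0.40) on its other probe sets past the filter. Its pair differences were -0.77, -0.29 and -0.46, and without control replicate 1 it had -0.34. Farsb, the beta subunit of the phenylalanine enzyme, read 303, 318 and 186 in controls and 254, 250 and 131 in Rb-null cells, with a fitted log2 difference of -0.36 (SE 0.28). The alpha subunit, Farsa, with which it forms 1 enzyme, read 233, 185 and 278 against 193, 181 and 275, at -0.11 (SE 0.35). Kars, the lysine enzyme of both compartments, read 162, 290 and 125 in controls and 131, 208 and 104 in Rb-null cells, at -0.32 (SE 0.31), and at -0.08 without control replicate 2. Farsb and Kars were lower in each pair, with overlapping groups.

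**Figure D2:**
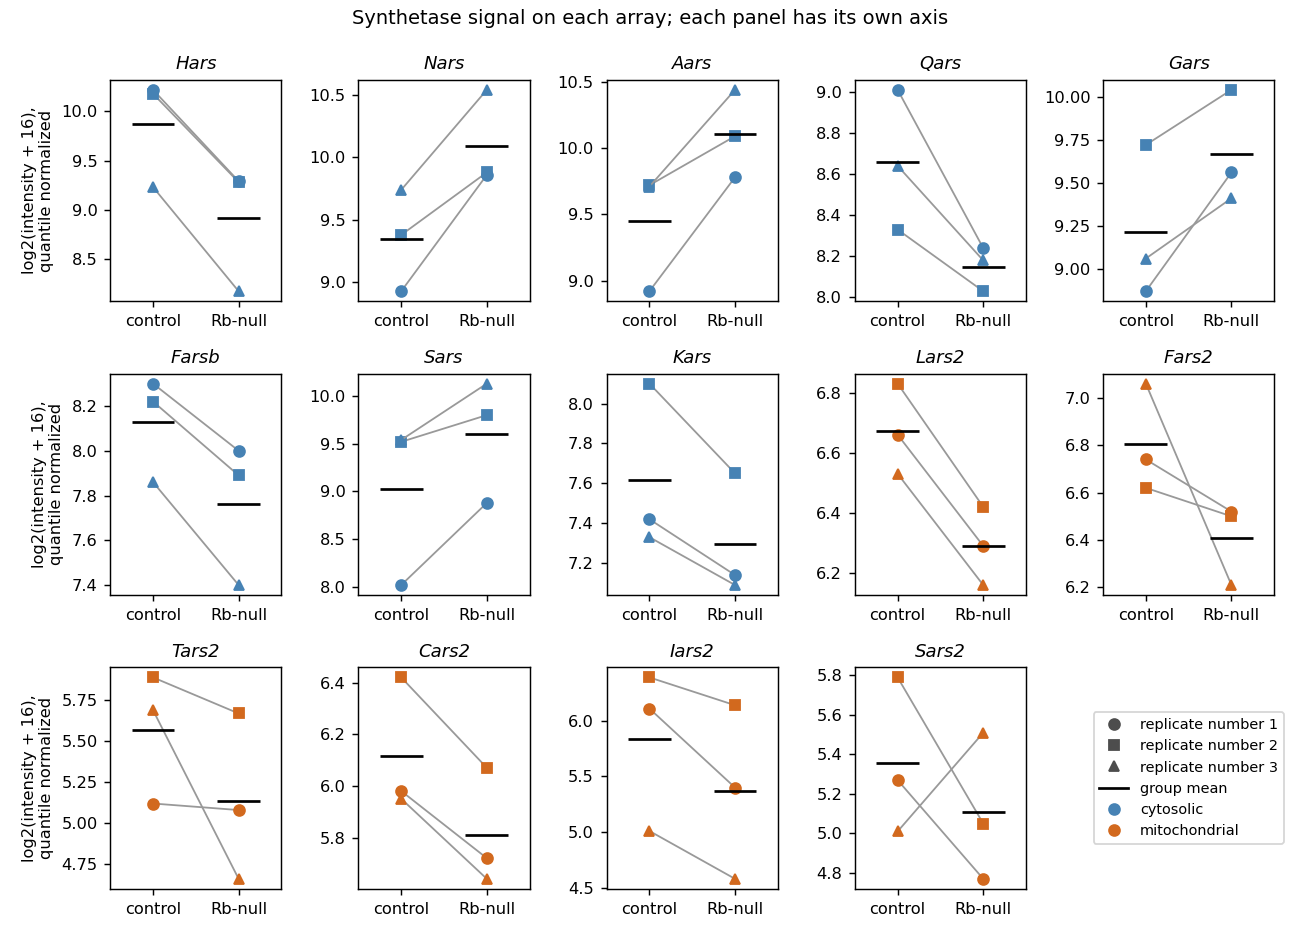
Quantile-normalized log2(intensity + 16) on each array for the 8 cytosolic and 6 mitochondrial synthetases with the smallest limma p, 1 gene per panel with its own axis. Symbols mark replicate numbers, grey lines join the control and Rb-null arrays of a number, and black bars are means of 3 arrays. The lines slope the same way in each panel except Sars2, and Hars drops by about the same amount in each pair (-0.93, -0.90 and -1.07).

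The remaining cytosolic enzymes differed by less than their standard errors. The replicate number took 73.2% or more of the variation between arrays in each of them except Lars, with 51.2%. Vars, the valine enzyme, read 246, 735 and 631 in controls and 273, 659 and 603 in Rb-null cells, so both arrays numbered 1 were the dimmest of their group. Iars, for isoleucine, read 363, 597 and 173 against 376, 472 and 137, a log2 fold change of -0.23 (SE 0.45). Tars, for threonine, read 115, 256 and 46.9 against 181, 200 and 80.0, at 0.30 (SE 0.47), lower in pair 2 (-0.34) and higher in pairs 1 and 3 (0.61 and 0.62). In Iars and Tars the arrays numbered 3 were the dimmest. Cars, for cysteine, read 177, 506 and 319 in controls and 276, 389 and 403 in Rb-null cells, at 0.18 (SE 0.40). Lars, for leucine, read 170, 330 and 172 against 220, 234 and 167, at -0.06 (SE 0.28). In both genes pairs 1 and 2 had opposite signs.

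Eprs, a fusion enzyme for glutamate and proline, read 183, 383 and 182 in controls and 189, 326 and 211 in Rb-null cells, and its log2 fold change rounded to 0.00 (SE 0.32). Mars, for methionine, read 565, 679 and 629 against 673, 696 and 704, at 0.10 (SE 0.26). Rars, for arginine, read 234, 211 and 159 against 257, 202 and 193, at 0.09 (SE 0.26). Of these Mars was higher in each pair, by 0.03 to 0.15. Wars, for tryptophan, read 178, 152 and 235 in controls and 152, 132 and 208 in Rb-null cells, at -0.18 (SE 0.36) with pair differences of -0.20, -0.18 and -0.17. Yars, for tyrosine, read 118, 213 and 124 against 133, 187 and 111, at -0.05 (SE 0.29). Wars thus had a small difference of nearly the same size in each pair, and Yars changed sign between pairs.

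Replicate number accounted for a larger share of the variation between arrays than genotype in 16 of the 19 cytosolic and 10 of the 12 mitochondrial members, and in 80.9% of all tested genes. The number has more levels than genotype, so its share would more often be the larger even with noise alone. The share of the number was 99.1% for Vars, 98.3% for Ears2, 95.7% for Farsa and 94.3% for Iars. Genotype had the larger share in Aars (50% against 45.2%), Nars (56.5% against 40.1%), Qars (60% against 31%), Fars2 (59.2% against 1.78%) and Lars2 (73.9% against 26%). In each pair 5 of the 19 cytosolic enzymes were higher (26.3%, against 18.4% of all genes) and 7 lower (36.8%, against 24.1%). The groups did not overlap for 2 that were higher, Nars and Aars (10.5%, against 5.13%), and for 1 that was lower, Qars (5.26%, against 4.78%).

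The spread of the cytosolic enzymes was set beside their known structure and assembly. The synthetases fall into 2 classes by the fold of the catalytic core. The 10 class I members, among them Cars, Iars, Mars, Vars, Wars and Eprs, which was placed here by its glutamate part although its proline part has the class II fold, ran from -0.51 to 0.18 with a median of -0.05. The 9 class II members, which include Aars, Gars, Nars, Sars and Hars, ran from -0.96 to 0.74 with a median of 0.30, and 6 of them stood at limma's unadjusted p under 0.05 with the block (4 higher and 2 lower), against 1 class I member, Qars. These are 66.7% of 9 and 10% of 10, beside 16.9% of all genes. A second division is the multisynthetase complex, which holds Eprs, Iars, Kars, Lars, Mars, Qars and Rars among the members measured. These 7 had a median of -0.06 and ran from -0.51 to 0.10, while the 12 outside it had a median of 0.07 and ran over the whole range. These divisions were drawn with the values known and were not tested.

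Mitochondrial enzymes gave dim signal, and their differences were small. Lars2, for leucine, read 92.3, 106 and 66.1 in controls and 64.9, 76.5 and 48.0 in Rb-null cells. It was lower in each pair by nearly the same amount (-0.37, -0.41 and -0.38), and after normalization the groups did not overlap. The log2 fold change was -0.39 (SE 0.25), but its second probe set past the filter had 0.20 (SE 0.31), so the Lars2 probe sets disagree. Fars2, for phenylalanine, read 97.5, 89.1 and 101 in controls and 78.5, 81.7 and 50.1 in Rb-null cells, with no overlap and a log2 fold change of -0.40 (SE 0.26). Most of that came from pair 3, with -0.85 against -0.22 and -0.12 in pairs 1 and 2, and without both arrays numbered 3 it was -0.17.

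Iars2, for isoleucine, read 58.9, 72.7 and 13.4 in controls and 27.9, 59.2 and 6.71 in Rb-null cells, at -0.46 (SE 0.48) and lower in each pair. It was -0.88 without control replicate 3, -0.84 without Rb-null replicate 2, -0.19 without control replicate 2 and -0.07 without Rb-null replicate 3. Cars2, for cysteine, read 52.8, 75.1 and 38.9 against 38.8, 55.2 and 29.7, at -0.31 (SE 0.27), also lower in each pair. Both had overlapping groups, with the arrays numbered 3 dimmest. Further Cars2 probe sets gave 0.26 (SE 0.29) and -0.06 (SE 0.29), and under 4 of 19 alternatives the Cars2 difference was positive. Tars2, for threonine, read 21.6, 45.6 and 30.1 in controls and 19.3, 37.1 and 7.92 in Rb-null cells, at -0.43 (SE 0.35), most of it from pair 3 (-1.02), and -0.14 without both arrays numbered 3. Tars2 and Sars2 thus lie near the filter, where the added offset of 16 holds differences down.

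Sars2, for serine, read 25.6, 41.6 and 13.4 against 12.7, 18 and 26.1, lower in pairs 1 and 2 and higher in pair 3, at -0.24 (SE 0.32). Yars2, for tyrosine, read 38.9, 58.3 and 78.0 against 53.9, 46.3 and 37.2, with pair differences from 0.42 to -0.86 and a log2 fold change of -0.23 (SE 0.32). Neither kept a sign over the pairs. Rars2, for arginine, read 98.7, 104 and 37.0 in controls and 88.0, 82.5 and 64.1 in Rb-null cells, at 0.07 (SE 0.31). Pars2, for proline, read 63.2, 55.8 and 27.9 against 54.3, 68.5 and 39.6, at 0.14 (SE 0.28). Both read dimmest on the arrays numbered 3 of each group. Wars2, for tryptophan, read 9.23, 21.0 and 32.5 against 19.6, 24.0 and 34.5, at 0.22 (SE 0.36), the 1 mitochondrial member that was higher in each pair. Hars2, for histidine, read 28.6, 22.5 and 27.4 against 27.5, 27.8 and 20.4, at -0.04 (SE 0.25).

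Ears2, for glutamate, read 111, 15.0 and 7.47 in controls and 148, 9.93 and 11.1 in Rb-null cells. Both arrays numbered 1 were far brighter than the other arrays, so the mean of this probe set rests on them, and the log2 fold change of 0.11 had an SE of 0.79. Its further probe sets had 0.11 (SE 0.34) and -0.35 (SE 0.47). Aars2, Mars2 and Nars2 stayed below the filter and were not tested. Aars2 read 48.8, 20.1 and 2.66 in controls and 71.6, 8.93 and 3.41 in Rb-null cells, brightest on the arrays numbered 1. Mars2 read 1.60 to 13.6 and Nars2 5.33 to 34.2 over the 6 arrays.

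Of the 12 mitochondrial members tested, 8 had a negative log2 fold change, 66.7% against 54.6% of all genes, and 5 were lower in each pair, 41.7% against 24.1%. Medians in pairs 1, 2 and 3 were -0.10, -0.24 and -0.31, beside 0.10, -0.18 and -0.01 for the cytosolic enzymes. The cytosolic median exceeded the mitochondrial one by 0.19, and by 0.20, 0.06 and 0.30 within pairs 1, 2 and 3. This gap varied with the processing and with single arrays, and the cause was not tested. It was 0.22 with the filter at the 60th percentile, 0.30 with an offset of 1, 0.10 with array weights, 0.02 when all probe sets of a gene past the filter were averaged and 0.06 with an offset of 64. With 1 array left out it was 0.06 without Rb-null replicate 3, 0.07 without Rb-null replicate 2 and 0.32 without control replicate 3. The mitochondrial median alone was -0.07 with averaged probe sets, and -0.06 and -0.07 without Rb-null replicate 2 and 3.

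Enzymes of the same amino acid allow 12 comparisons between compartments, with Eprs used against both Ears2 and Pars2. Fars2 (-0.40) was set against Farsa only, and not against Farsb (-0.36). The cytosolic difference was the higher in 8 and the lower in 4. The sign was the same in each pair for 3 of the 12. Sars exceeded Sars2 by 0.82, by 1.35, 1.02 and 0.09 in pairs 1, 2 and 3. Hars lay below Hars2 by 0.93 on the log2 scale (difference -0.93; -0.95, -1.07 and -0.76 within pairs). Wars lay below Wars2 (difference -0.40; -0.72, -0.29 and -0.20). Tars exceeded Tars2 by 0.73, Cars exceeded Cars2 by 0.48, Lars exceeded Lars2 by 0.32, Farsa exceeded Fars2 by 0.29, Iars exceeded Iars2 by 0.23 and Yars exceeded Yars2 by 0.19, each with a pair of the opposite sign. Rars and Rars2 differed by 0.02, and Eprs lay at -0.11 and -0.14 against Ears2 and Pars2.

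**Figure D3:**
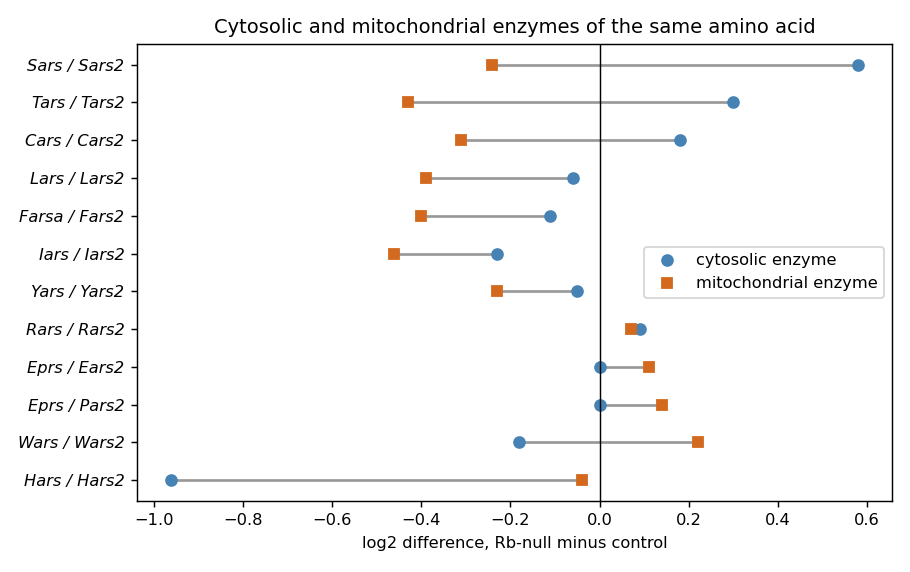
Log2 difference between Rb-null and control cells for the cytosolic (circle) and mitochondrial (square) enzyme of the same amino acid, 3 arrays per group, without error bars. The widest gaps are Hars below Hars2 (-0.93), Sars above Sars2 (0.82) and Tars above Tars2 (0.73).

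Different probe sets of a gene bear on how far each value can be read. Of the 15 members for which several probe sets passed, 6 had probe sets of opposite sign, Cars, Cars2, Ears2, Eprs, Farsa and Lars2. In Cars the second probe set had -0.38 (SE 0.41) against 0.18 (SE 0.40). The other Farsa probe sets had 0.11 (SE 0.27) and -0.07 (SE 0.25), and those of Eprs -0.21 (SE 0.41), 0.00 (SE 0.66) and 0.48 (SE 0.31). The members with the larger differences, Aars, Nars, Sars, Hars, Qars and Farsb, had fitted differences of 1 sign over their probe sets. The second Nars probe set, as deposited, nonetheless read lower in Rb-null cells in pair 2. Gars and Kars had 1 probe set each.

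The scaffolds of the multisynthetase complex had no common direction. Aimp1 read 139, 253 and 44.0 in controls and 110, 169 and 15.5 in Rb-null cells, with a fitted log2 difference of -0.60 (SE 0.65), lower in each pair. Aimp2 had 0.38 (SE 0.31), higher in each pair, and Eef1e1 -0.26 (SE 0.62), lower in each pair. Of synthetase genes outside the list, Vars2 had 0.09 (SE 0.27) and Tarsl2 -0.35 (SE 0.31).

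Of 11 tested genes that help charge or edit tRNA, 10 had a negative value (90.9%, against 54.6% of all genes) and 8 were lower in each pair (72.7%, against 24.1%), with a median of -0.25, and limma called 0 of them after adjustment. Dtd2, a deacylase that removes D-amino acids and mischarged alanine from tRNA, read 36.6, 23.1 and 48.7 in controls and 12.3, 10.6 and 8.93 in Rb-null cells, at -0.95 (SE 0.30, limma unadjusted p = 0.0125, adjusted p = 0.840). All its Rb-null values were below all controls and below the filter intensity, so the size is uncertain. Qrsl1, a subunit of the amidotransferase that makes mitochondrial glutaminyl-tRNA in place of a separate enzyme, had -0.33 (SE 0.25), its partners Gatb and Gatc -0.04 (SE 0.29) and -0.13 (SE 0.26), Pstk, which acts on seryl-tRNA of selenocysteine, -0.37 (SE 0.30), and Prorsd1 -0.47 (SE 0.47). The formyltransferase of mitochondrial initiator tRNA, Mtfmt, was the exception at 0.27 (SE 0.39).

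Factors that take up charged tRNA at the ribosome showed no shared direction. Cytosolic elongation factors had a median of 0.11 over 6 genes, with Eef1b2, a nucleotide exchange factor, at -0.60 (SE 0.39), Eef2 at 0.11 (SE 0.37) and Eef1a1 at -0.12 (SE 0.27). Mitochondrial translation factors had a median of -0.05 over 10 genes, with the release factor Mtrf1l at 1.16 (SE 0.57), the elongation factor Gfm1 at -0.70 (SE 0.38) and the carrier of charged tRNA, Tufm, at -0.14 (SE 0.30). Genes of tRNA transcription had a median of -0.08 over 19, with Polr3b at -0.65 (SE 0.36) and Gtf3c4 at 0.79 (SE 0.52). Genes of tRNA processing had a median of 0.14 over 16, with Rpp21 at -0.93 (SE 0.33) and Xpot, the exporter of tRNA from the nucleus, at 1.15 (SE 0.66). In none of these lists did limma call a gene at adjusted p under 0.05. At unadjusted p under 0.05 stood 1 gene of charging and editing, Dtd2, and 1 of processing, Rpp21, both lower, which is 9.09% of 11 and 6.25% of 16 beside 4.06% of all genes.

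Genes linked to ATF4 lay apart in size. Over 24 tested genes the median was 0.55, 20 were positive (83.3%, against 45.4% of all genes) and 10 stood at limma's unadjusted p under 0.05, all higher (41.7%, against 4.06% of all genes in either direction), while 0 passed after adjustment. This list was drawn with earlier results of these arrays known. Atf4 itself had 0.60 (SE 0.45), and the asparagine-making enzyme Asns, whose product Nars loads onto tRNA, read 870, 1832 and 1011 in controls and 1431, 1937 and 1367 in Rb-null cells, at 0.33 (SE 0.31). Ddit3, which encodes the stress factor CHOP, read 155 to 249 in controls and 989 to 1059 in Rb-null cells, at 2.15 (SE 0.26), and Trib3, a pseudokinase that restrains ATF4, had 1.69 (SE 0.42). Ddit4, an inhibitor of mTORC1, had the largest value of the list, 2.60 (SE 0.38). Cebpg, a partner of ATF4 in dimers, had 1.40 (SE 0.25). The 4 negative genes were Stc2 at -0.30 (SE 0.36), Psph at -0.09 (SE 0.40), Psat1 at -0.01 (SE 0.59) and Phgdh at -0.01 (SE 0.30). Chac1 and Atf3 were near 0, at 0.05 (SE 0.29) and 0.10 (SE 0.30). Of the 24 list genes 15 were higher in each pair, 62.5% against 18.4% of all genes, and 1 was lower, 4.17% against 24.1%. Of the 19 cytosolic synthetases 5 were higher in each pair (26.3%) and 7 lower (36.8%).

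**Figure D4:**
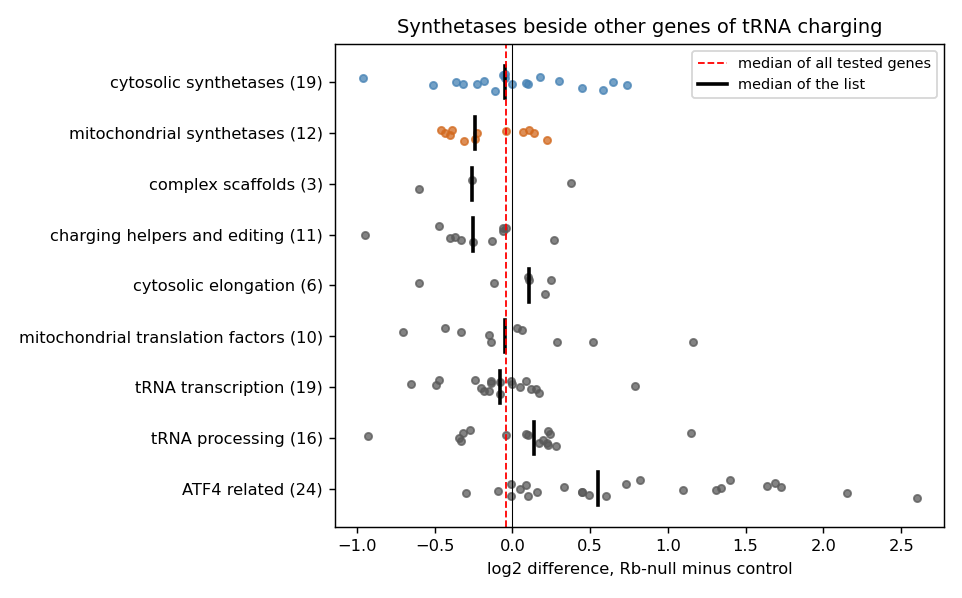
Log2 difference between Rb-null and control cells for each tested gene of 9 lists, with the number of genes in parentheses. Points are genes (vertical scatter has no meaning), black bars are list medians and the red dashed line is the median of all tested genes, -0.04. Cytosolic synthetases spread on both sides of 0 around -0.05, and the ATF4 related genes have a median of 0.55.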

How the data were processed

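The authors deposited linear intensities, 1 column of probe set values per array, from biotin-labelled total RNA, per the labels' protocols. The summary method and the scaling between arrays are not given in the sources used here. Of 45101 probe sets, 64 controls, 4 empty ones and 1 with a value above a 16-bit scanner's range were left out, and 34941 of the 45032 left carried 1 gene symbol, 932 several and 9159 none. Values were transformed as log2(intensity + 16) and quantile normalized, since array medians differed by 0.264. Those whose mean exceeded the 40th percentile were kept, with the brightest taken for each gene. All 13232 genes were fitted in R 4.3.3 with limma 3.58.1, with 2-sided moderated tests and Benjamini-Hochberg adjustment at 0.05. An exact permutation test of 3 against 3 cannot go below p = 0.1, so none was run. Intensities are printed as deposited and differences as normalized.

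Groups and replicate numbers came from the sample titles. Deviations from the group means of arrays with the same number correlated at 0.636, 0.615 and 0.653, so a fit with the number as block was added. For arrays of other numbers across groups the correlation was at most 0.0370. This second value is held down in advance, because the deviations sum to 0 within each group. The fits with and without the block were tested on simulated data with independent normal noise, for recovery of known mean differences only. The block fit with trend and robust moderation was not among them. Members and lists were chosen with earlier results of these data known. Named were all members, and of each list up to 4 genes with the smallest p, plus Atf4, Ddit3, Asns and Trib3. Gatb, Gatc, Prorsd1, Mtfmt, Eef2, Tufm, Stc2, Psph, Psat1, Phgdh, Chac1 and Atf3 fall outside this rule and were chosen after their values were seen. Alternatives varied scaling, offset, filter, choice of probe set, block, array weights, variance moderation and arrays left out. Matching genes to promoters used 250 bases before and 50 from the RefSeq start site.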

Additional observations from a re-analysis of the deposited data

How the results depend on the processing

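Of the 31 synthetases, 14 kept the sign of their difference under each of the 19 alternatives that gave them a value. Among them Nars, Aars, Sars, Gars, Hars, Qars, Farsb, Kars, Lars2 and Fars2 had a value under all 19, Iars2 under 18, and Tars2 and Sars2 under 17, since the filter or choice of probe sets removed them from the others. In all, 42 of 580 single values had the opposite sign, all of members that limma did not call in those settings. Rb-null against control gave 0 called genes in the fit reported, 2 with an offset of 64, 3 with array weights and 473 with the replicate block, trend and robust moderation, a fit in which 2 synthetases passed. The cytosolic median of -0.05 ran from -0.19 to 0.07, and the number of positive cytosolic members from 7 to 12, when single arrays were left out. The mitochondrial median of -0.24 was -0.11 with an offset of 64 and -0.07 with averaged probe sets, and ran from -0.31 to -0.06 when single arrays were left out. The gap between the classes, 0.19, was 0.06 and 0.02 in those settings and ran from 0.06 to 0.32 with single arrays left out. Negative mitochondrial members numbered 4 of 6 with the filter at the 60th percentile, as fewer genes were tested. Cytosolic members higher at unadjusted p under 0.05 numbered 1 in the fit reported, 0 with an offset of 1, the 60th percentile filter or averaged probe sets, 2 with an offset of 64, and 4 with the replicate block, with or without trend and robust moderation. Those lower numbered 1, 0 with the deposited or median scaling or an offset of 1, 2 with averaged probe sets and 3 with the replicate block in either form. Each of these counts ran from 0 to 1 with single arrays left out. Mitochondrial members lower at that p numbered 0, 2 with the replicate block and 1 with the block, trend and robust moderation. The cause of the other shifts was not tested. Where 1 array was left out, its group kept 2, and the fit had no block, so the replicate numbers were unbalanced between the groups. Dim signal limits the mitochondrial enzymes, of which 3 stayed below the filter, and the size of differences near it shrinks with the offset.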
